A study of Mus musculus with 8 samples.

Results

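The E2F family is read here from 26 array features that carry the symbols E2f1 to E2f8, out of 33709 features with a listed gene. All 8 members were on the array, out of 19087 genes in all. They were taken by gene symbol, with earlier results of these data known. By textbook role they were split into 3 activators (E2f1, E2f2 and E2f3, with 16 features) and 5 repressors (E2f4 to E2f8, with 10 features). The RNA was polyA RNA from B splenocytes (spleen B cells), taken from 8 mice of strain C57BL/6. The lymphoma group had 4 mice of genotype c-myc/Cdk4(R24C), in which c-myc is combined with a form of the kinase Cdk4 that the INK4 inhibitors cannot hold back, and the control group had 4 wild type mice. A single mouse was hybridized to each array with the dye Cy3, and the small number of 4 arrays in a group limits how precise a difference can be. The arrays lay on 2 slides: mice 1 and 2 of both groups were on slide 1, mice 3 and 4 of both groups on slide 2.

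The sources used here do not give what drives c-myc or the ages of the mice. The controls carried neither change, so that c-myc, the Cdk4 allele and the lymphoma itself cannot be told apart. Of 8 B cell markers 7 were measured, and all 7 were above background on every array, among them Cd79a and Cd79b of the B cell receptor and Ms4a1, which encodes CD20.

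E2F proteins are transcription factors that bind short DNA sites at genes for DNA synthesis and cell division. In resting cells the pocket proteins Rb1, Rbl1 and Rbl2 hold them in check, and cyclin D with Cdk4 or Cdk6 releases them by phosphorylating the pocket proteins. E2f1, E2f2 and E2f3 switch target genes on, E2f4 and E2f5 mostly repress with a pocket protein, and E2f6, E2f7 and E2f8 repress without one. Several E2F genes are themselves known E2F targets and known MYC targets, so the start regions of E2f6 and E2f2, the 2 members that passed the test within slide 2, are shown for reference. Sequences are from RefSeq, build GRCm38.p6, from 250 bases before to 50 bases after an annotated start, in the direction of the gene. Capitals mark the E2F letters searched for, which were TTTGGCGC, TTTCCCGC, TTTGCCGC and TTTCGCGC on both strands.
E2f6, chr12:16810715-16811014, plus strand: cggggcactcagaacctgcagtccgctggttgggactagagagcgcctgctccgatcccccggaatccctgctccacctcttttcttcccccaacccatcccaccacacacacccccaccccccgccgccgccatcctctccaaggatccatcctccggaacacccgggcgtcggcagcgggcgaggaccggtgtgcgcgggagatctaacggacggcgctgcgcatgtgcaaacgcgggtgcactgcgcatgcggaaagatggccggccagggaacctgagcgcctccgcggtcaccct
E2f2, chr4:136172024-136172323, plus strand: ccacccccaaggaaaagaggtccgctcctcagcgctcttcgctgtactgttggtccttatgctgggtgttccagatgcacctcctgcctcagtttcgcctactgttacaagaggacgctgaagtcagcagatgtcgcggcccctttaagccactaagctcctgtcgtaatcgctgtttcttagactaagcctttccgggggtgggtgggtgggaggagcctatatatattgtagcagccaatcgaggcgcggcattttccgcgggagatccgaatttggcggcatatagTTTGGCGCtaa

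The E2f2 window held TTTGGCGC from position 40 after the start, and the E2f6 window held none of these letters. A window was at hand for 6 of the 8 members, E2f2 and E2f3 with more than 1 start, and 3 members had a match. At least 1 of the 4 letter forms stood in 2.26% of the 32851 promoter windows. The other matches lay at E2f3 and E2f7, each on the strand opposite to the gene, and are shown as the 30 bases around them.
E2f3, chr13:29986056-29986085, minus strand: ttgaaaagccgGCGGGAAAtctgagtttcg
E2f7, chr10:110745230-110745259, plus strand: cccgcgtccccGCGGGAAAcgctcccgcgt
The MYC site CACGTG, which reads the same on both strands, stood in 1 window, at the other start of E2f3, against 7.15% of all windows. It is in capitals in the 30 bases around it.
E2f3, chr13:29984397-29984426, minus strand: gacgtttcgcaCACGTGcgcggaggacgcg
These matches are letters in a window and were not tested as sites.

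The controls differed among themselves. Across features, wild type 1 had a mean correlation of 0.963 with the 4 lymphoma arrays and of 0.941 with the other controls, and wild type 2 lay apart on the second principal component. Values without 1 or both of these arrays are given beside the results that they move most. Wild type 1 was the control most like the lymphomas, so leaving it out tends to widen the difference of the groups. Calls over all features rose from 557 to 2317 without it, so passing in that fit is not separate support for a gene. All 7 macrophage and monocyte markers measured had a lower mean in lymphoma and an unadjusted p under 0.05 in limma. Of these 5 passed, where 2.09% of all genes passed in either direction. The summed level of the 7 lay between 13.59 and 14.03 on the log2 scale in lymphoma and between 14.80 and 15.44 in wild type. Of 7 granulocyte markers 6 had a lower mean in lymphoma, 4 of the list had an unadjusted p under 0.05 and 1, S100a8, passed, with summed levels of 10.82 to 12.42 against 12.87 to 14.17. No member of the T cell and erythroid lists (7 genes measured in each) passed, and Cd4 lay under the background bound on all 8 arrays. Of the erythroid markers 6 had a lower mean in lymphoma and 4 had an unadjusted p under 0.05 in limma, where 15.9% of all genes were that low. Of the T cell markers 4 had a lower mean and 0 had an unadjusted p under 0.05. The summed T cell level was 11.48 to 12.17 in lymphoma and 11.44 to 12.63 in wild type, and the erythroid level 11.04 to 12.33 and 11.52 to 14.17. The 7 B cell markers summed to 16.87 to 17.32 in lymphoma and 16.79 to 17.43 in wild type, a sum led by Cd79b and Ms4a1, which were near the ceiling (at least 80% of the highest intensity of an array) on 7 and 5 arrays. Of these 7 markers 0 passed and 2 had an unadjusted p under 0.05, both lower in lymphoma. They were Vpreb3, with a log2 difference of -2.87 (limma adjusted p 0.0516), and Cd22, an inhibitory receptor gene, with -1.03 (limma adjusted p 0.0854). With wild type 1 left out, where 8.15% of all genes passed, 5 macrophage, 3 granulocyte, 2 erythroid and 0 T cell markers passed, all lower in lymphoma, and 1 B cell marker, Vpreb3 at -3.52 (adjusted p 0.00187 in limma). The part of these cells in the E2F values was not tested. In such a preparation, fewer cells of a type and less RNA per cell cannot be told apart.

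No feature of the E2F family passed the test with all 8 arrays. In limma with Benjamini-Hochberg adjustment over all 33709 features, 0 of 26 E2F features had an adjusted p under 0.05, where 1.65% of all features did. By an unadjusted p under 0.05 there was 1 of 26, a feature of E2f6, where 14.5% of all features were that low. Of the 16 activator features 11 were higher and 5 lower in lymphoma, with a median log2 difference of 0.04. Of the 10 repressor features 8 were higher and 2 lower, with a median of 0.21. By the brightest feature of each gene the median was 0.36 for the 3 activators, 0.23 for the 5 repressors and 0.06 over all genes. Over the 26 features, the lowest lower bound of a 95% interval was -0.97 and the highest upper bound 1.87 on the log2 scale.

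**Figure D1:**
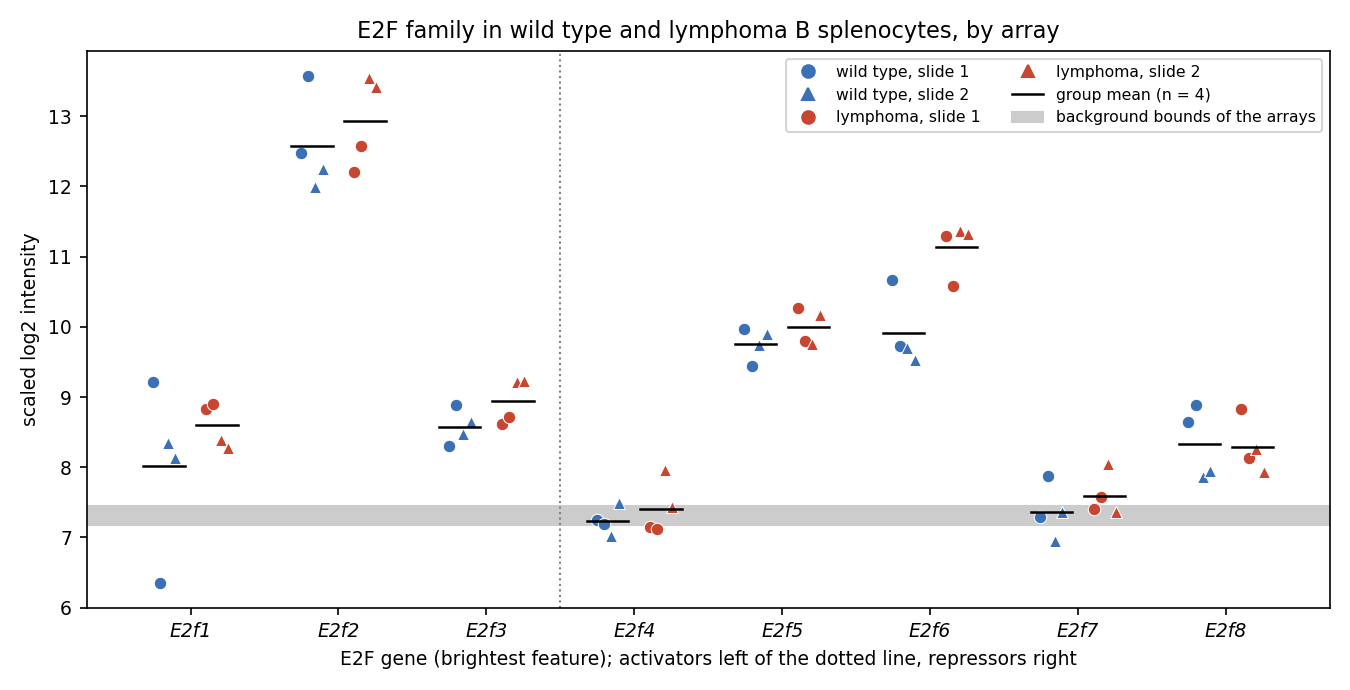
Scaled log2 intensity (vertical axis) of the brightest feature of each E2F gene (horizontal axis) on the 8 arrays, with circles for slide 1, triangles for slide 2, blue for wild type, red for lymphoma, black bars for group means (n = 4) and a grey band for the background bounds of the arrays. E2f6 has its 4 lymphoma values between 10.58 and 11.36 and its control values between 9.53 and 10.67, and E2f4 and E2f7 lie around the grey band.

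E2f1, an activator, was read by 11 features. On its brightest feature the controls gave 9.22, 6.36, 8.35 and 8.13 (scaled log2 intensity, wild type 1 to 4) and the lymphomas 8.83, 8.90, 8.39 and 8.27 (lymphoma 1 to 4). Wild type 2 was the lowest, under its background bound, and wild type 1 was above every lymphoma, so the groups overlapped. The log2 difference was 0.58 ± 0.48 (SE, n = 4 in each group, limma adjusted p 0.624), and it was 0.03 without wild type 2 and 0.99 without wild type 1 (adjusted p 0.226). The other 10 features of E2f1 had group means between 7.02 and 7.86, close to the background bounds of 7.17 to 7.45. Of these 7 were higher and 3 lower in lymphoma, with differences from -0.36 to 0.38. All 11 are annotated to the same E2f1 transcript and the table names features by number alone, so how many different probes they are cannot be told. The mean of all 11 features differed by 0.08 ± 0.20 (SE, limma adjusted p 0.877).

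E2f2, an activator known in mice for restraining the division of lymphocytes as well as for driving S phase genes, had 1 feature. The controls gave 12.48, 13.57, 11.99 and 12.25 (scaled log2 intensity, wild type 1 to 4) and the lymphomas 12.20, 12.58, 13.55 and 13.42 (lymphoma 1 to 4). High values stood in wild type 2 and in both lymphomas of slide 2, and low values in both controls of slide 2 and in lymphoma 1, so the groups overlapped. Over all arrays the log2 difference was 0.36 ± 0.39 (SE, limma adjusted p 0.716), with a 95% interval from -0.48 to 1.21. It was 0.70 without wild type 2 (adjusted p 0.387 in limma), 0.33 without wild type 1 (adjusted p 0.724) and 0.82 without both (adjusted p 0.266). Within slide 2 alone it was 1.37 (adjusted p 0.0304 in limma), where 5.78% of all features passed, and within slide 1 alone it was -0.64 (adjusted p 0.710), where 0% passed.

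The difference between the slides was itself tested for the E2F features by an interaction term in limma. For E2f2 it was 2.00 on the log2 scale with an unadjusted p of 0.00483 and an adjusted p of 0.499, and 0 of the 26 E2F features passed, as did 0% of all features. E2f2 was the 1 E2F feature with an unadjusted interaction p under 0.05, against 7.57% of all features. Without wild type 1 the E2f2 interaction was 2.55 (adjusted p 0.0482 in limma). It passed in that fit together with the brightest E2f1 feature, whose interaction was -2.41 (adjusted p 0.0475), where 0.608% of all features did. Slide 1 then holds wild type 2 as its 1 control, which is assumed to vary like the other arrays. Without wild type 2, so that wild type 1 is the 1 control of slide 1, the E2f2 interaction was 1.46 (adjusted p 0.168 in limma) and that of the brightest E2f1 feature turned to 0.45 (adjusted p 0.536), where 0.178% of all features passed.

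E2f3, the activator needed for proliferation in many cells, was read by 4 features that did not go one way. On its brightest feature the controls gave 8.30, 8.89, 8.48 and 8.65 and the lymphomas 8.61, 8.72, 9.22 and 9.22 (scaled log2 intensity, in the order of the mouse numbers). Both lymphomas of slide 2 were above every control and both of slide 1 were not. The log2 difference was 0.36 ± 0.23 (SE, limma adjusted p 0.513). Of the other 3 features the 2 above background on all arrays differed by -0.25 and -0.22, and the third lay under the bound on every array. E2f3 is transcribed from more than 1 start into a longer and a shorter form, and the sources used here do not say which form a feature reads.

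**Figure D2:**
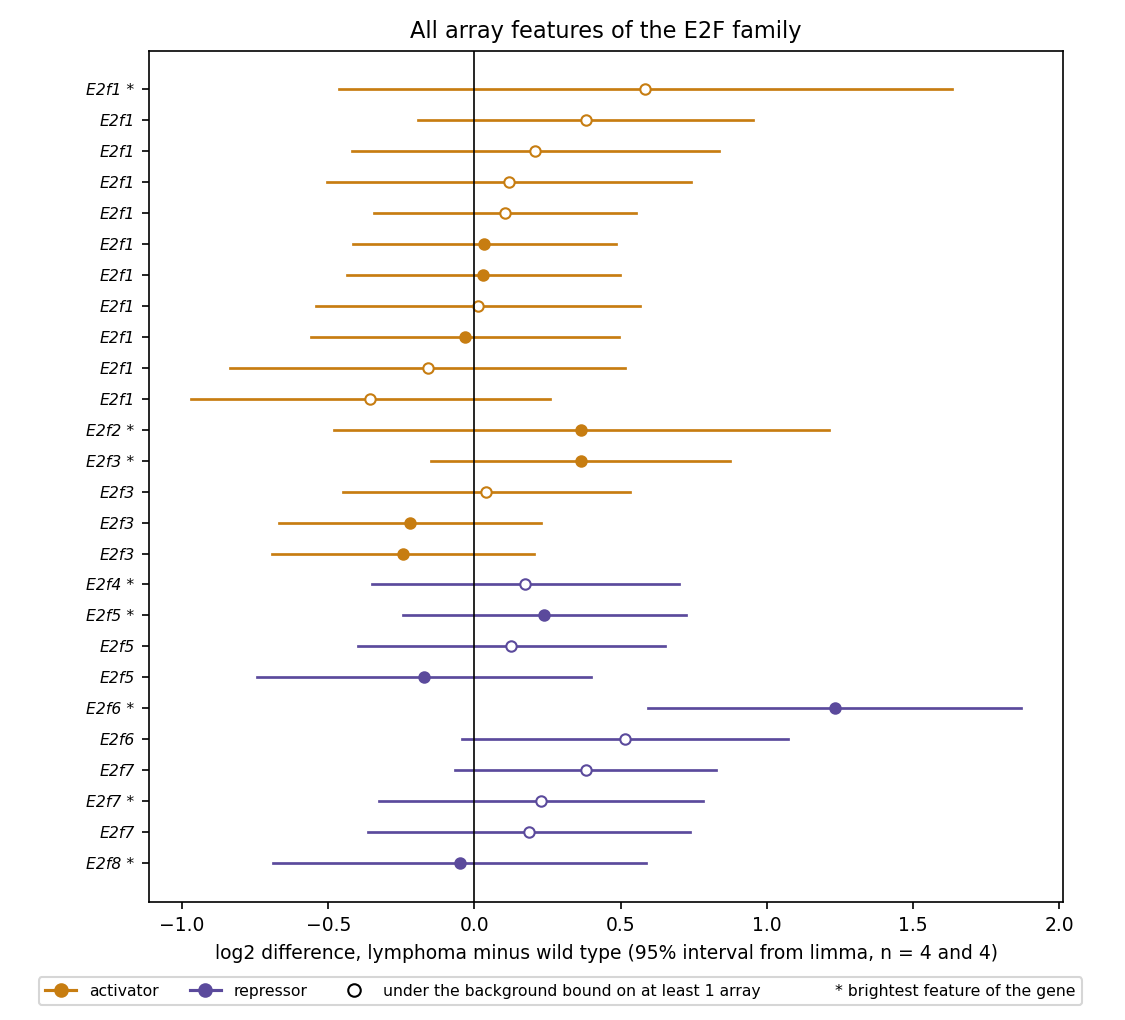
Log2 difference of lymphoma minus wild type (horizontal axis) with its 95% interval from limma (n = 4 and 4) for each of the 26 features (vertical axis), activators in orange and repressors in purple. Open circles are features under the background bound on at least 1 array and asterisks mark the brightest feature of a gene. The interval of the brightest E2f6 feature runs from 0.59 to 1.87 before adjustment over all features, and the other 25 intervals hold 0.

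Among the repressors that act with pocket proteins, E2f4 and E2f5 showed small differences. The 1 feature of E2f4, the main E2F of resting cells, lay at the background bound, with 7.25, 7.19, 7.03 and 7.49 in wild type 1 to 4 and 7.15, 7.11, 7.96 and 7.43 in lymphoma 1 to 4. It was above the bound on 2 arrays of each group, so its difference of 0.17 ± 0.24 (SE, limma adjusted p 0.787) says little of E2f4. E2f5, close in sequence to E2f4, gave 9.97, 9.44, 9.74 and 9.89 in wild type and 10.26, 9.80, 9.76 and 10.17 in lymphoma on the brightest of its 3 features. The groups overlapped, and the log2 difference was 0.24 ± 0.22 (SE, limma adjusted p 0.669) with a 95% interval from -0.24 to 0.72. Of the other features of E2f5, 1 differed by -0.17 and 1 lay under the bound on all 8 arrays.

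E2f6, which represses without a pocket protein and works with Polycomb proteins, had the largest difference of the family. On its brighter feature the controls gave 10.67, 9.73, 9.70 and 9.53 (scaled log2 intensity, wild type 1 to 4) and the lymphomas 11.29, 10.58, 11.36 and 11.33 (lymphoma 1 to 4). Lymphoma 2 was the lowest lymphoma and fell just under wild type 1, the highest control, so the groups overlapped by that pair. The mean was 9.91 ± 0.52 in wild type and 11.14 ± 0.37 in lymphoma (SD, n = 4). The log2 difference was 1.23 ± 0.29 (SE), or 2.35-fold, and it missed the threshold (limma adjusted p 0.0615).

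The E2f6 call depended on the arrays. Without wild type 1 the log2 difference was 1.49, or 2.80-fold, with an adjusted p of 0.00486 in limma, where 6.87% of all features passed. Without wild type 1 and wild type 2 it was 1.52 (adjusted p 0.0104), where 7.26% passed. Within slide 2 alone it was 1.73 (adjusted p 0.0185), and within slide 1 alone, which holds wild type 1 and lymphoma 2, it was 0.74 (adjusted p 0.708). Leaving out each array in turn kept the difference between 1.11 and 1.49, and the fit without wild type 1 was the 1 of 8 that passed. Over these 8 fits the adjusted p in limma ran from 0.00486 to 0.187.

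The dimmer E2f6 feature was near background, with 7.33, 6.46, 6.47 and 6.53 in wild type 1 to 4 and 6.82, 7.32, 7.34 and 7.38 in lymphoma 1 to 4. Wild type 1 again stood with the lymphomas, while lymphoma 1 lay below the other 3. The log2 difference of this feature was 0.51 ± 0.25 (SE, limma adjusted p 0.386), and the mean of both E2f6 features differed by 0.87 ± 0.24 (SE, limma adjusted p 0.0948).

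The atypical repressors E2f7 and E2f8, which have a pair of DNA-binding domains and act without a DP partner, showed no difference past the test. The brightest of 3 E2f7 features lay around the background bound, with 7.29, 7.87, 6.95 and 7.36 in wild type and 7.40, 7.57, 8.04 and 7.37 in lymphoma, and differed by 0.23 ± 0.25 (SE, limma adjusted p 0.731). A dimmer E2f7 feature was the 1 of 26 whose groups did not overlap, or 3.85% of the family's features against 9.25% of all features, but it lay under the bound on all 8 arrays. E2f8 gave 8.64, 8.89, 7.87 and 7.95 in wild type 1 to 4 and 8.83, 8.12, 8.27 and 7.93 in lymphoma 1 to 4. Both controls of slide 1 were above both controls of slide 2. The log2 difference was -0.05 ± 0.29 (SE, limma adjusted p 0.960), with a 95% interval from -0.69 to 0.59.

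**Figure D3:**
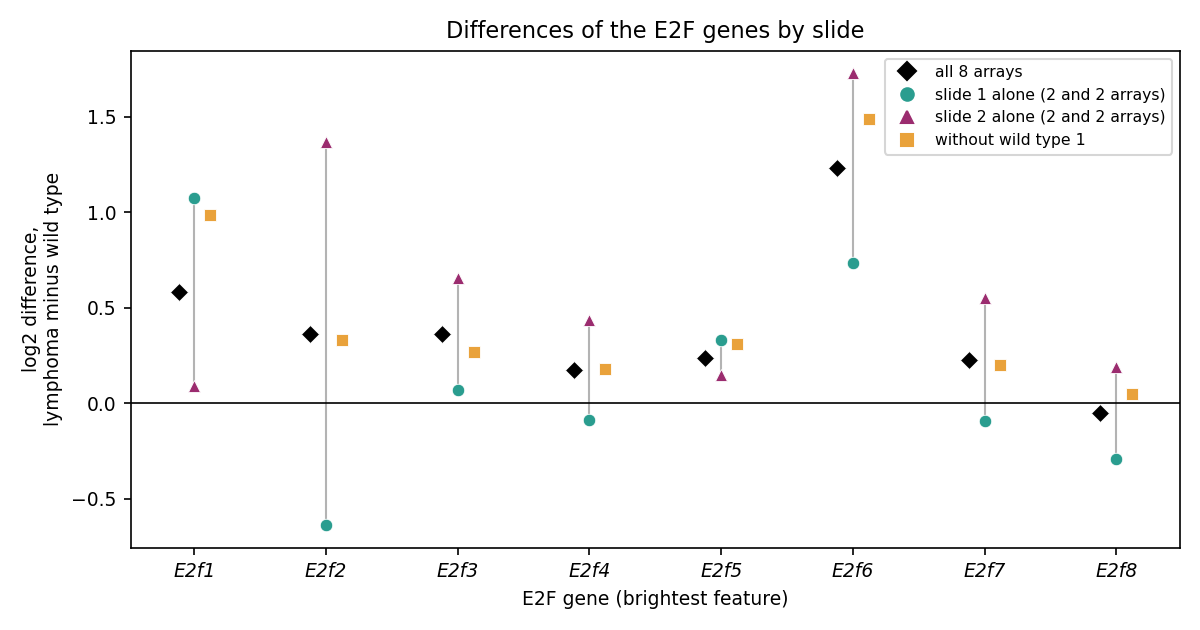
Log2 difference of lymphoma minus wild type (vertical axis) for the brightest feature of each E2F gene (horizontal axis), with black diamonds for all 8 arrays, green circles for slide 1 alone, purple triangles for slide 2 alone (2 and 2 arrays each) and orange squares without wild type 1. E2f2 runs from -0.64 on slide 1 to 1.37 on slide 2, and E2f6 is above 0 on both slides.

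Counted by feature and not by gene, 13 of 26 were higher in lymphoma on slide 1 and 20 of 26 on slide 2. The 11 features of E2f1, which may repeat a probe, gave 5 of these on slide 1 and 10 on slide 2. The share of all features higher on each slide was not taken. Within slide 2 alone 2 of 26 passed, E2f2 and the brighter E2f6 feature, where 5.78% of all features did, and within slide 1 alone 0 of 26 passed, where 0% of all features did. E2f6 was higher in lymphoma on both slides by both of its features. E2f1 by its brightest feature differed by 1.07 on slide 1 and 0.09 on slide 2, and E2f3 by 0.07 and 0.66.

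Of the genes tested, those closest to E2f6 in pattern were Acy1, an aminoacylase, Me2, the mitochondrial malic enzyme, and Rnaseh2a, the catalytic subunit of ribonuclease H2. Their root mean square distances to E2f6 over the 8 arrays, after each gene was centered on its mean, were 0.14, 0.15 and 0.16 on the log2 scale. The closest to E2f2 were Rcbtb1, Cpsf3 and Sun1 (0.14, 0.14 and 0.16), and the closest to the brightest E2f1 feature were Smarca4, Immt and Exosc8 (0.14, 0.14 and 0.17). E2f8 was nearest to Ndufaf6, Uri1 and Sbspon, at 0.07, 0.07 and 0.08. E2f7 was nearest to Cdh18, Olfr341 and Hoxd8 (0.11, 0.11 and 0.12), and Olfr341 belongs to the olfactory receptors that set the background bound. These are descriptions of 8 arrays that also hold the group difference.

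The genes around the family were taken from fixed lists and read by the brightest feature of each gene. With all 8 arrays 0 members of the 7 lists passed, where 2.09% of all genes did, and 15.9% of all genes had an unadjusted p under 0.05. Among 5 DP partners and pocket proteins the median log2 difference was -0.03, and 0 had an unadjusted p under 0.05. Rb1, the retinoblastoma protein gene, had the smallest p of them, with a log2 difference of 0.51 (limma adjusted p 0.492). Tfdp1, which encodes the DNA-binding partner of the E2Fs, is named here after its values were seen. Over all arrays it differed by 0.63 (limma adjusted p 0.509). It differed by 0.02 on slide 1 and by 1.24 on slide 2 (adjusted p 0.033 in limma), where 6.75% of all genes passed. Its controls gave 12.36 and 11.38 on slide 1 and 10.34 and 10.29 on slide 2, and its lymphomas lay between 11.46 and 11.99. A list of 8 genes held the MuvB core, its DREAM kinase, B-MYB and Foxm1, with a median of -0.07. Lin52 had the smallest p of these, with a log2 difference of -0.77 (limma adjusted p 0.255), and 1 of the 8 had an unadjusted p under 0.05.

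For E2f6 the partners and the known repressed genes were read apart. Of 10 Polycomb partners the median was 0.07 and 2 had an unadjusted p under 0.05. Wdr5, a WD repeat protein of several chromatin complexes, differed by 1.15 (limma adjusted p 0.229), and without wild type 1 by 1.61 (adjusted p 0.00944), as 1 of 10 partners to pass against 8.15% of all genes. Of 5 germline genes that E2F6 keeps silent in mouse cells 4 were measured. Their median log2 difference was -0.18, and 2, Smc1b and Stag3, had an unadjusted p under 0.05 in limma. Smc1b, a meiotic cohesin subunit, gave 7.68, 7.47, 7.36 and 7.40 in wild type 1 to 4 and 6.65, 6.66, 6.66 and 7.08 in lymphoma 1 to 4. These values lay near the background bounds of 7.17 to 7.45, above the bound on 4 controls and on 0 lymphomas. The groups did not overlap, as was seen in either direction in 9.99% of all genes. The fitted log2 difference of Smc1b was -0.72 (limma adjusted p 0.115). Stag3, another meiotic cohesin subunit, differed by -0.60 (limma adjusted p 0.232), also without overlap of the groups. It was above the bound on 4 controls and on 2 lymphomas. Slc25a31 lay under the bound on all 8 arrays. Tuba3a differed by 0.24, with means of 13.06 in wild type and 13.30 in lymphoma. Its feature was thus far above background in both groups and did not read as that of a silent gene.

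Upstream of the family, 0 of 14 G1 to S cyclins, kinases and inhibitors passed, with a median of 0.20. Cdk4 had the smallest p, with a log2 difference of 1.06 (limma adjusted p 0.166). With wild type 1 left out 3 genes were higher and 0 lower, or 21.4% of the list against 8.15% of all genes. They were Cdk4, Ccne1, which encodes cyclin E1 and is a known E2F target, and Cdkn2b, which encodes the inhibitor p15. In these 3 genes wild type 1 exceeded the mean of the other controls by 1.19, 1.78 and 1.58, so leaving it out widened their differences. Over the list wild type 1 exceeded the other controls by a median of 0.46, against -0.03 over all genes. Within slide 2 alone Ccne1 differed by 1.73 (adjusted p 0.0186 in limma) and within slide 1 by -0.10. Its controls gave 12.21 and 11.24 on slide 1 and 9.94 and 10.12 on slide 2, and its 4 lymphomas lay between 11.61 and 11.79.

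Downstream, 0 of 34 G1/S target genes of E2F passed, with 19 higher and 15 lower, a median of 0.05 and 7 at an unadjusted p under 0.05. Of these 7, Ung, Tyms and Pole were higher in lymphoma and Cdt1, Dck, Fen1 and Msh6 lower. Ung, the uracil-DNA glycosylase, had the smallest p. It gave 9.59, 9.36, 9.31 and 8.60 in wild type and 10.08, 10.07, 10.95 and 10.66 in lymphoma, so that all 4 lymphomas lay above the 4 controls. Groups without overlap, in either direction, were seen in 9.99% of all genes. Cdt1 (log2 difference -1.07) and Fen1 (-0.72) had such groups as well, with the lymphomas lower. The log2 difference of Ung was 1.23 (limma adjusted p 0.0581). With wild type 1 left out 2 target genes were higher, Tyms (thymidylate synthase) and Ung, and 1 was lower, the replication licensing gene Cdt1, or 8.82% of the list against 8.15% of all genes. Within slide 2 alone it was 3, or 8.82%, against 6.75% of all genes. Of 14 genes of G2 and mitosis bound by DREAM 0 passed, with a median of 0.06 and 1 at an unadjusted p under 0.05. Aurkb, the Aurora B kinase, had the smallest p, with a log2 difference of 0.74 (limma adjusted p 0.165). Without wild type 1 Ccnb2 was higher by 1.07 (adjusted p 0.0387), as 1 of 14. Wild type 1 itself exceeded the other controls by a median of 0.51 among the target genes and 0.43 among the G2 and mitosis genes, against -0.03 over all genes.

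**Figure D4:**
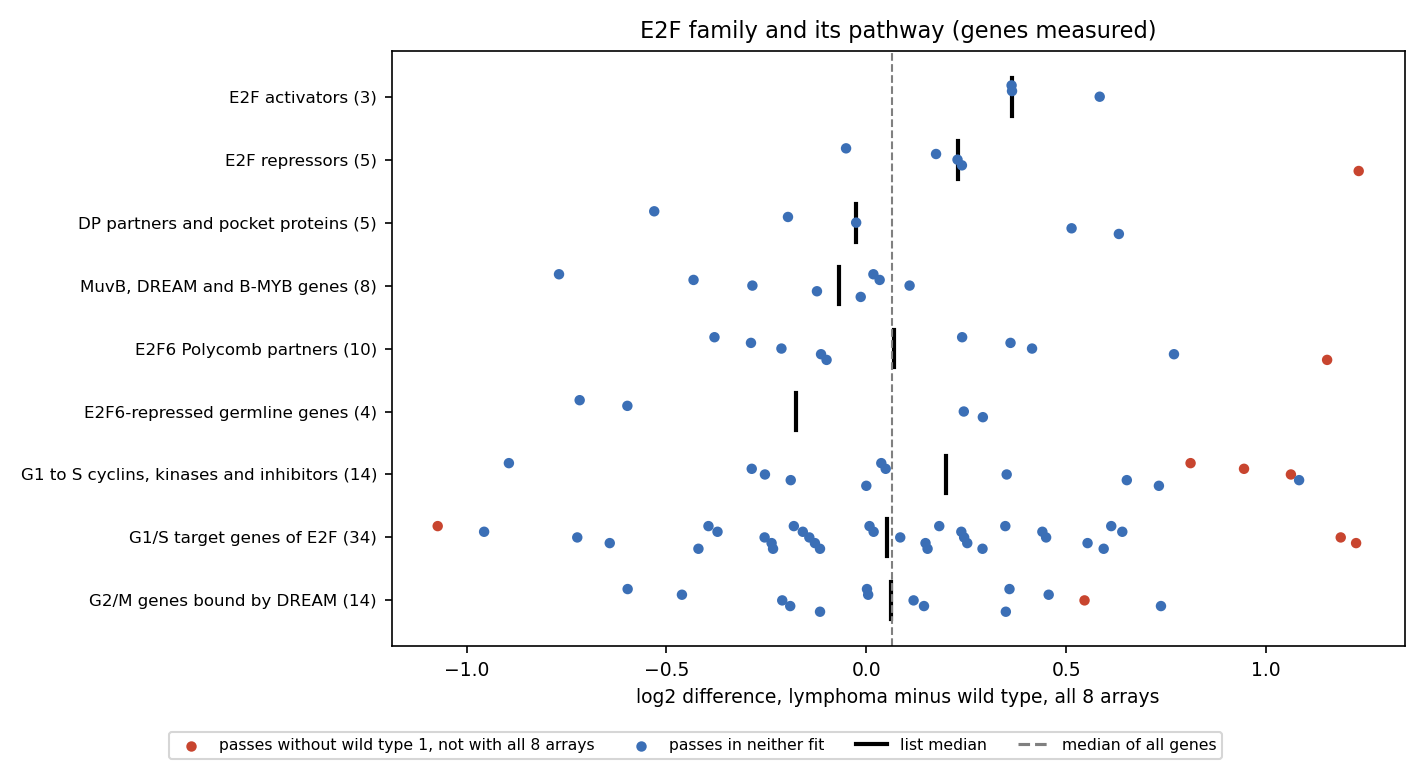
Log2 difference of lymphoma minus wild type with all 8 arrays (horizontal axis) for the brightest feature of each gene in the E2F family and its fixed lists (vertical axis, number of genes measured in brackets), with black bars for list medians and a dashed line for the median of all genes. Red points pass the limma test without wild type 1 and not with all 8 arrays, among them E2f6 and Cdk4, and blue points pass in neither fit.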

How the data were processed

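PolyA RNA of B splenocytes was measured on 1-color Agilent arrays, 0.5 µg per array, per the labels. The values the authors deposited are log2 intensities of 45220 features. The sources used here do not state the scanner, background correction or normalization. The platform annotation lists a gene for 33709 features, of which 33653 have 1 symbol and 56 several (not named). The 75th percentiles of the arrays differed by 0.215 on the log2 scale, and subtracting them gave the values called scaled here. The brightest feature of a gene is that with the highest mean over the 8 arrays.

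Groups come from the genotype labels and slides from the array identifiers. lmFit and eBayes of limma (version 3.58.1, R 4.3.3) were run over all 33709 features with a term for group, two-sided and with Benjamini-Hochberg adjustment, and a feature passed with an adjusted p under 0.05. The fit was tested on simulated data. Intervals are the 95% intervals of single features, not adjusted. The background bound is, per array, the 95th percentile of the 1113 olfactory and vomeronasal receptor features. No E2F feature reached 80% of the highest intensity of an array.

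The members and the gene lists were chosen with earlier results of these data known, as was the background bound. All E2F features are reported. Of a context list the members that passed, or else the one with the smallest p, were to be named, and any others were named after their values were seen. For E2F genes that span over 1 log2 unit and are above the bound on at least 4 arrays, the 3 genes closest in pattern are named, without predicted transcripts. Some members of the gene lists were not analysed here, and counts are over those measured. Alternatives changed the normalization (quantile, as deposited, median), the dim features (dimmer 50% left out, or values raised to the 5th percentile), the variance model, the array weights, a block for slide or replicate number, the slide, the features of a gene and the arrays left out. Leaving out wild type 1 and 2 together was chosen after seeing the data. Deviations from the group means correlated across features by 0.175, -0.04, 0.133 and -0.02 between mice of the same number. Mice of the same number also shared a slide. The numbers were not taken as pairs, although these correlations cannot exclude a pairing.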

Additional observations from a re-analysis of the deposited data

Results flagged for a closer look

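In groups of 4 arrays, 1 array can lie far from the other 3. By Dixon's test at the 95% level this was seen in 7 of 66 groups tested, over the 26 E2F features and the 7 list genes with the smallest p, where chance gives about 1 in 20. On the brighter E2f6 feature lymphoma 2 was low, at 10.58 against 11.29 to 11.36 in the other lymphomas. On the dimmer E2f6 feature wild type 1 was high, at 7.33 against 6.46 to 6.53, and lymphoma 1 was low, at 6.82 against 7.32 to 7.38. An E2f5 feature had wild type 1 low, at 7.74 against 8.45 to 8.51. An E2f3 feature had wild type 2 high, at 8.04 against 7.60 to 7.61, and lymphoma 1 high, at 7.70 against 7.40 to 7.45. Smc1b had lymphoma 4 high, at 7.08 against 6.65 to 6.66, all 4 under the background bound. The arrays that stood apart differed from feature to feature.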

How the results depend on the processing

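Of 513 values of single E2F features under an alternative, 462 kept their direction and their side of the threshold, 46 turned direction without passing in either fit, and 5 passed that had not (E2f6 in 4, E2f2 in 1). The causes were not tested. With the replicate number as a block 0 E2F features passed and E2f6 had an adjusted p of 0.0528 in limma, no call of an E2F feature or list member changed, and 713 of all features passed. Lymphoma 4 left out gave the fewest calls over all features, 84, and wild type 1 left out the most, 2317. Over the fits without 1 array, 0 to 1 E2F features and 0 to 1 E2F genes passed, with 0 to 1 Polycomb partners, 0 to 3 G1 to S cyclins, kinases and inhibitors, 0 to 3 G1/S target genes, 0 to 1 G2 and mitosis genes, and 0 to 2 slide interactions.

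Without the dimmer 50% of features, and with the mean of a gene's features, 1 target gene passed. Array weights gave 2128 calls over all features, 1 E2F feature (E2f6), 1 E2F gene, 1 germline gene, 2 G1 to S genes, 3 target genes and 1 G2 and mitosis gene. Slide 1 alone gave 0 calls over all features. Slide 2 alone gave 1949, with 2 E2F features, 2 E2F genes, 1 DP or pocket gene, 3 G1 to S genes and 3 target genes. Without wild type 1 and 2 there were 2448, with 1 E2F feature, 1 E2F gene, 1 DP or pocket gene, 1 Polycomb partner, 3 G1 to S genes and 4 target genes.

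Turned log2 differences were -0.026 (E2f5) and -0.16 (E2f3) with quantile normalization, and -0.039, -0.043 and -0.059 (E2f1) and -0.032 (E2f3) as deposited. With array weights they were 0.086 and 0.16 (E2f1), 0.21 (E2f8) and -0.057 (E2f3). On slide 1 they were -0.094 (E2f7), -0.64 (E2f2), -0.087 (E2f4) and -0.13, -0.050 and -0.30 (E2f1), and on slide 2 -0.13 (E2f5), 0.12 and 0.26 (E2f1), 0.19 (E2f8) and -0.29 (E2f3). Without wild type 1 and 2 they were 0.27 and 0.28 (E2f1), 0.38 (E2f8) and -0.19 (E2f3). With 1 array left out, differences that turned ranged from -0.073 to 0.091, -0.077 to 0.36, -0.040 to 0.15, -0.062 to 0.42, -0.38 to 0.061, -0.14 to 0.10 and -0.11 to 0.17 for 7 E2f1 features, from -0.0072 to 0.27 for E2f4, from -0.23 to 0.13 for E2f8 and from -0.082 to 0.20 for an E2f3 feature. Features near the background bound, most of E2f1 and those of E2f4 and E2f7 among them, limit what these arrays can show.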
